A study of Mus musculus with 4 samples.

Results

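Solute carriers are the membrane proteins that move sugars, amino acids, organic ions, metals, vitamins, lipids and nucleotides into and out of cells and organelles, and their genes carry the symbols Slc or Slco. The members described here are all probe sets of the Affymetrix MG_U74Av2 array with 1 platform gene symbol that starts with Slc or Slco and a number, apart from 7 genes that were left out (Slc4a1, Slc10a1, Slc2a2, Slc37a4, Slc22a18, Slc25a1 and Slc25a15). This gave 178 probe sets of 147 genes, of 12422 probe sets on the array that are not controls. By substrate they fell into amino acid (24 genes), sugar (8), organic ion (23), metal (17) and mitochondrial Slc25 (18) groups and a mixed group of other substrates (57). Slc9a3r1, Slc9a3r2 and Slc4a1ap share the symbol pattern but encode scaffold or binding proteins and not carriers, and they were counted in the last group.

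RNA was taken from whole liver. All mice were male B6SJL hybrids, aged 50 to 66 days, fed from weaning for 4 weeks on a diet of 65% protein and 10% carbohydrate. PEPCK-TAg animals have a transgene for the SV40 large T and small t oncoproteins under the promoter of the phosphoenolpyruvate carboxykinase gene, which is active in liver and also in kidney, and the wild-type mice carry none. Each group had 2 arrays. No label says whether the arrays of a group stand for different animals. The p-values therefore reflect the spread between arrays alone, which may be technical.

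The liver takes up nutrients from portal blood and returns glucose, amino acids and other metabolites to the circulation, and each of these steps needs carriers. Amino acid carriers feed gluconeogenesis and urea synthesis, which a diet rich in protein engages. Carriers of the Slc25 family pass metabolites and nucleotides through the inner mitochondrial membrane, and metal carriers of the Slc30 and Slc39 families move zinc in opposite directions across the cytosol.

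In PEPCK-TAg liver 7 solute carrier probe sets rose and 5 fell, each of a different gene. With only the brightest probe set of each gene, 5 rose and 5 fell, since the brighter probe sets of Slc30a5 and Slc6a4 did not pass. The rises were those of Slc25a4, a mitochondrial ADP/ATP carrier, Slc5a1, the sodium-glucose carrier SGLT1, Slc6a8, the creatine carrier, Slc6a4, the serotonin carrier, Slc8a1, a sodium-calcium exchanger, Slc30a5, a zinc carrier of the secretory pathway, and Slc20a1, a sodium-phosphate carrier. The falls were those of Slc46a1, a proton-coupled folate carrier, Slc22a30 of the organic ion family Slc22, Slc6a12, a carrier of betaine and GABA, Slc27a5, a fatty acid carrier that also activates bile acids, and Slc31a1, the copper importer. Slc25a4 was 21.9-fold higher and Slc46a1 6.63-fold lower. The signals of Slc5a1, Slc6a8, Slc6a4 and Slc8a1 in wild-type liver were near or under the floor, so the sizes of their rises depend on it. In a bulk sample, fewer cells of a type and less RNA per cell cannot be told apart.

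These calls came from limma's moderated test on the log2 signal, fitted over 7877 probe sets, at a Benjamini-Hochberg adjusted p of 0.05. A probe set was tested when at least 2 of the 4 arrays exceeded a signal of 41.3, and signals under a floor of 10.6 were raised to it. Of the 178 member probe sets 116 were tested, covering 103 of the 147 genes. The other 62 were too dim, and the highest signal among them was 109.9, on 1 array. Of the 116, 7 exceeded 41.3 on both PEPCK-TAg arrays and on neither wild-type array, so they were tested through the group in which they were high. They include 4 of the 7 rises (Slc5a1, Slc6a8, Slc6a4 and Slc8a1). Calls were made for 12 of 116 member probe sets (10.3%), against 12.5% of all probe sets tested, so the share was near the background. Rises made up 6.03% of the members tested against 9.10% of all probe sets, and falls 4.31% against 3.40%. The median log2 difference was -0.19 over the member probe sets, against 0.051 over all probe sets. With the brightest probe set of each gene it was -0.32 over the 103 member genes, against 0.072 over all genes. Quantile normalization moved the median of all probe sets to -0.088, and differences under it are relative to that value. Without any test, a difference of at least 2-fold and groups that did not overlap were seen in 23 member probe sets (19.8%), against 20.5% of all probe sets. Of these 12 were higher and 11 lower, against 14.7% and 5.87% of all probe sets. Groups that did not overlap, whatever the fold, were seen in 70 members (60.3%), against 59.8% of all probe sets.

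**Figure D1:**
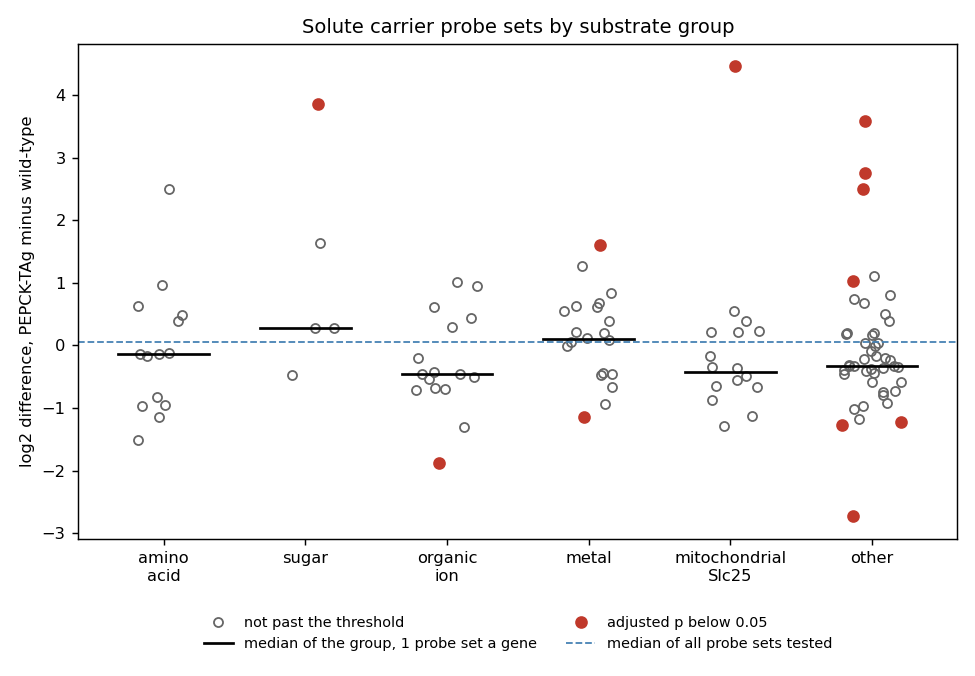
Log2 difference (PEPCK-TAg minus wild-type, vertical axis) of each tested solute carrier probe set, by substrate group; filled points passed an adjusted p of 0.05, black bars are group medians over genes and the dashed line is the median of all 7877 probe sets. The 7 rises lie between 1.03 and 4.45 and the 5 falls between -2.73 and -1.15, and the amino acid group holds no filled point.

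Among markers of other cells measured on the same arrays, 7 of 9 erythroid markers, 9 of 13 myeloid markers and 7 of 7 markers of dividing cells rose in PEPCK-TAg liver. Of all genes 9.56% rose and 3.34% fell. The summed signal of the erythroid list was 10718 and 14824 on the PEPCK-TAg arrays, against 3956 and 4286 on the wild-type arrays. That of the myeloid list was 8671 and 13370 on the PEPCK-TAg arrays, against 1638 and 1579 on the wild-type arrays, with Marco at the floor on all 4 arrays. That of the dividing cell list was 8034 and 7199 on the PEPCK-TAg arrays, against 743.5 and 672.9 on the wild-type arrays. Hepatocyte markers were bright on all arrays, and 3 of 9 fell (Ttr, Tat and Cyp2e1). Alb, Apoa1, Cps1 and Serpina1b were lower and did not pass. Fgb was higher without overlap (0.52, limma adjusted p = 0.185) and Apob higher with overlap (0.40, adjusted p = 0.422). The summed signal of the hepatocyte list was 55481 and 70971 on the PEPCK-TAg arrays, against 98212 and 102306 on the wild-type arrays. Lymphocyte markers showed 2 called rises among 5 tested and endothelial markers 1 among 8. Stellate and fibroblast markers showed 1 among 6 and biliary markers 1 among 1, and none of these lists held a called fall. Cd4, Cd79a and Ms4a1 were lower without overlap and did not pass, and the lymphocyte median was -0.56. So were Col1a2, Dcn and Reln of the stellate and fibroblast list, with a median of -0.16. The biliary marker Krt19 was at the floor on all 4 arrays. The part of these cells in the differences below was not tested. The PEPCK-TAg arrays shared a chip lot that no wild-type array had, so lot and group cannot be told apart. PEPCK-TAg 1 and wild-type 1 were scanned on the same day, and their difference is given as the same-day value. PEPCK-TAg 2 was the only array of its fluidics station, and wild-type 2 the only array of its scanner type. A block of either kind gives the same log2 differences as leaving out that array, so these alternatives are not separate. Their calls can differ, since the filter was set again with an array left out and not with a block. With the station as a block limma called 0 members and 0 of all probe sets tested, and the lowest adjusted p of a member was 0.129. Without a filter on dim probe sets Slc25a4 was the only one of the 12 that kept its call.

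The rise with the lowest adjusted p was in the mitochondrial group. Slc25a4 encodes ANT1, the isoform of the ADP/ATP carrier best known from heart and skeletal muscle. Its signal was 1477 and 1697 on the PEPCK-TAg arrays, against 61.9 and 84.3 on the wild-type arrays. The groups lay far apart and the arrays within each group close together. Slc25a4 was 21.9-fold higher (log2 difference 4.45 ± 0.27 SE, n = 2 arrays in each group, here and below, limma adjusted p = 0.000589), with a same-day value of 4.58. It also passed with each array left out, at 4.23 to 4.68, and its call was lost with the station as a block (4.35, adjusted p = 0.129).

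Slc25a5, the ADP/ATP carrier ANT2 that most dividing and non-muscle cells use, did not pass. Its brighter probe set read 297.3 and 485.3 on the PEPCK-TAg arrays, against 451.1 and 409.0 on the wild-type arrays, with the groups overlapping (log2 difference -0.18 ± 0.30 SE, adjusted p = 0.729). A second one read 58.7 and 90.5 on the PEPCK-TAg arrays, against 67.6 and 57.6 on the wild-type arrays (0.22 ± 0.37 SE, adjusted p = 0.716). Both Slc25a5 probe sets are of kinds that Affymetrix marks as less specific, so related transcripts may add to their signals.

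In the mitochondrial group 1 of 16 probe sets rose and none fell (6.25% called, against 12.5% of all probe sets tested). Of its 14 tested genes 10 had a negative difference, with a median of -0.42. Slc25a17, a peroxisomal member that carries cofactors such as CoA, read 620.9 and 296.4 on the PEPCK-TAg arrays, against 1114 and 978.7 on the wild-type arrays. Slc25a47, a liver-enriched carrier, read 928.1 and 1086 on the PEPCK-TAg arrays, against 1622 and 2950.5 on the wild-type arrays. Slc25a25, which exchanges ATP-magnesium for phosphate, read 1289 and 1470.3 on the PEPCK-TAg arrays, against 2132 and 2966 on the wild-type arrays. In these 3 genes both PEPCK-TAg arrays lay below both wild-type arrays, and none passed (log2 differences -1.28, -1.12 and -0.87, adjusted p = 0.0715, 0.0712 and 0.0731). Slc25a20, which carries acylcarnitines for fatty acid oxidation, gave -0.56 ± 0.25 SE without overlap (adjusted p = 0.193), and Slc25a39, needed for mitochondrial glutathione import, gave -0.48 ± 0.31 SE with overlap (adjusted p = 0.333). The other 7 tested genes of the group lay between -0.67 and 0.54. Slc25a3, Slc25a14, Slc25a48 and Slc25a53 were too dim to test.

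In the sugar group 5 of 8 genes were tested and 1 rose. Slc5a1 couples glucose uptake to the sodium gradient and is the main route of glucose in the intestine. Its signal was 204.6 and 172.6 on the PEPCK-TAg arrays, against 15.9 and 4.00 on the wild-type arrays, where 1 array lay under the floor. Both wild-type values lay below the filter level, so Slc5a1 was tested through the PEPCK-TAg arrays. Slc5a1 rose at least 14.5-fold (log2 difference 3.86 ± 0.40 SE, limma adjusted p = 0.00251), with a same-day value of 3.68. When the floor was raised to 41.3, the filter level, the value was 2.19 and the call stood, whereas without PEPCK-TAg 1 (3.73) or PEPCK-TAg 2 (3.98) the probe set was no longer tested.

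Slc2a1, the glucose carrier GLUT1 of many dividing cells, read 72.5 and 67.8 on the PEPCK-TAg arrays, against 31.5 and 16.3 on the wild-type arrays. Both wild-type values lay below the filter level, so it was tested through the PEPCK-TAg arrays. The groups did not overlap and the difference did not pass (1.63 ± 0.46 SE, adjusted p = 0.0687). Slc2a3 (GLUT3) gave 0.27 ± 0.51 SE with overlapping groups (adjusted p = 0.751). Slc50a1, a sugar carrier of the SWEET family, gave 0.29 ± 0.25 SE, and Slc2a8 (GLUT8), which sits on inner membranes, gave -0.47 ± 0.28 SE, both without overlap (adjusted p = 0.483 and 0.312). The group's median was 0.29. Slc2a4, Slc2a5 and Slc5a11 were too dim to test.

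No amino acid carrier passed: limma called 0 of the 14 genes tested, against 12.9% of all genes. Of the 14, 3 higher and 5 lower had an unadjusted p under 0.05, against 1197 higher and 656 lower of all 5954 genes. Without a test, Slc7a7 was higher and Slc1a2 and Slc38a4 were lower by at least 2-fold and their groups did not overlap. The median was -0.14, with 5 positive and 9 negative differences, and it was 0.047 without PEPCK-TAg 1 and -0.31 without PEPCK-TAg 2. Of the 24 genes in this group 10 had no tested probe set, among them Slc7a1, a carrier of cationic amino acids, and Slc7a11, the cystine-glutamate exchanger.

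Slc38a4, a sodium-coupled carrier of neutral amino acids that is typical of hepatocytes, read 2441 and 3837 on the PEPCK-TAg arrays, against 5825 and 7922 on the wild-type arrays. Both PEPCK-TAg arrays were below both wild-type arrays (log2 difference -1.15 ± 0.30 SE, limma adjusted p = 0.0541). Slc1a2, the glutamate carrier of pericentral hepatocytes and of glia, read 45.1 and 89.8 on the PEPCK-TAg arrays, against 184.4 and 176.9 on the wild-type arrays. Its groups did not overlap either (-1.51 ± 0.39 SE, adjusted p = 0.0547). Slc7a2, which imports arginine and other cationic amino acids, read 629.3 and 1342 on the PEPCK-TAg arrays, against 1525.5 and 2084 on the wild-type arrays, and it did not pass (-0.96 ± 0.39 SE, adjusted p = 0.157). The wild-type arrays were the higher pair in all 3 of these genes. Slc1a2 and Slc38a4 lay close to the threshold, and passed it in 6 and 4 of 15 alternative fits.

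Slc7a7, a light chain that exports cationic amino acids, read 136.6 and 202.9 on the PEPCK-TAg arrays, against 13.0 and 66.2 on the wild-type arrays. The wild-type arrays differed widely from each other, and the gene did not pass (2.50 ± 0.74 SE, adjusted p = 0.0750). Slc3a2, the heavy chain that pairs with several Slc7 light chains, read 1076 and 1205 on the PEPCK-TAg arrays, against 786.4 and 970.1 on the wild-type arrays (0.38 ± 0.24 SE, adjusted p = 0.321). Its partner Slc7a5 (LAT1) of large neutral amino acids read 160.2 and 227.5 on the PEPCK-TAg arrays, against 217.0 and 202.9 on the wild-type arrays, with overlap (-0.14 ± 0.29 SE, adjusted p = 0.785). The heavy chain's groups were apart by little and those of the light chain were mixed. Slc38a2, a neutral amino acid carrier known to respond to amino acid shortage, read 872.8 and 903.5 on the PEPCK-TAg arrays, against 605.0 and 542.9 on the wild-type arrays, without overlap (0.63 ± 0.22 SE, adjusted p = 0.118). The glutamine carrier Slc1a5 (ASCT2) gave 0.49 ± 0.37 SE near the filter level, and its relative Slc1a4 (ASCT1) gave -0.17 ± 0.37 SE (adjusted p = 0.417 and 0.788). The other 5 genes tested lay between -0.96 and 0.97.

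**Figure D2:**
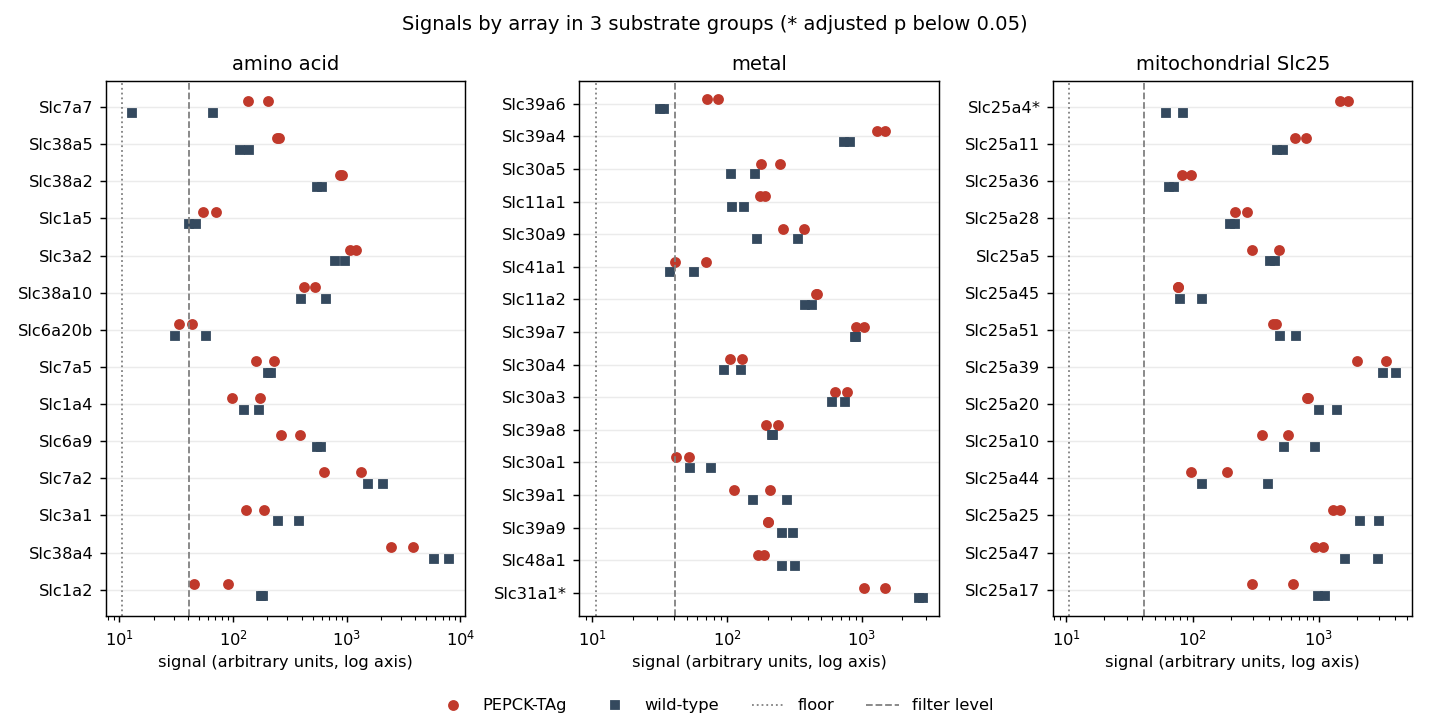
Signal on each array (log axis, arbitrary units) of the tested genes of the amino acid, metal and mitochondrial groups, with the brightest probe set of each gene; circles are PEPCK-TAg and squares wild-type arrays, and the lines mark the floor (10.6) and the filter level (41.3). Slc25a4 stands out at 1477 and 1697 against 61.9 and 84.3. Among the 14 amino acid genes 10 (71.4%) have groups that do not overlap, against 60.9% of all genes, and none passed. Slc30a5 is drawn with its brighter probe set, which did not pass.

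Among organic ion carriers 1 of 16 probe sets fell and none rose (6.25% called, against 12.5% of all probe sets tested). The median was -0.46 over 15 genes. Slc22a30 belongs to a rodent branch of the organic anion carriers. Its signal was 846.6 and 358.8 on the PEPCK-TAg arrays, against 2420.1 and 1696 on the wild-type arrays. Both PEPCK-TAg arrays were lower than both wild-type arrays. Slc22a30 fell 3.68-fold (log2 difference -1.88 ± 0.43 SE, limma adjusted p = 0.0360), with a same-day value of -1.52. It gave -2.50 without PEPCK-TAg 1 and -1.26 without PEPCK-TAg 2, which ended the call, as did quantile normalization (-1.83, adjusted p = 0.0523) and, at an unchanged difference, a floor at 41.3 (adjusted p = 0.0559) and eBayes without a trend (adjusted p = 0.0592). A further probe set lists both Slc22a28 and Slc22a30 and was left out, and close relatives may share probes with this one.

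Slc44a1, a choline carrier, read 965.2 and 628.1 on the PEPCK-TAg arrays, against 437.9 and 340.1 on the wild-type arrays, without overlap (1.01 ± 0.30 SE, adjusted p = 0.0757). Slc16a1, the lactate and pyruvate carrier MCT1, read 101.3 and 87.3 on the PEPCK-TAg arrays, against 39.6 and 60.01 on the wild-type arrays, without overlap (0.95 ± 0.37 SE, adjusted p = 0.141). Both genes were higher on each PEPCK-TAg array and neither passed. Slc22a17, known as a receptor of lipocalin 2, gave -1.30 ± 0.52 SE without overlap (adjusted p = 0.154), and Slc10a3, an orphan of the bile acid carrier family, gave -0.42 ± 0.31 SE with overlap (adjusted p = 0.402). The other 10 genes lay between -0.71 and 0.61, and 8 genes of the group were too dim to test. The hepatic organic anion carriers Slco1a1 and Slco1b2 were not analysed here.

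In the metal group 1 of 20 probe sets rose and 1 fell, in 2 different genes (10.0% called, against 12.5% of all probe sets tested). The median over 16 genes was 0.11. Slc31a1 (CTR1) brings copper into cells. Its brighter probe set read 1473 and 1037 on the PEPCK-TAg arrays, against 2659 and 2819 on the wild-type arrays. Slc31a1 fell 2.22-fold (log2 difference -1.15 ± 0.25 SE, limma adjusted p = 0.0329), with a same-day value of -0.85. A second Slc31a1 probe set read 729.3 and 560.9 on the PEPCK-TAg arrays, against 1283 and 1155 on the wild-type arrays, also without overlap (-0.93 ± 0.24 SE, adjusted p = 0.0552). Both probe sets thus pointed the same way, on opposite sides of the threshold. The brighter one lost its call without PEPCK-TAg 1 (-1.40, adjusted p = 0.0895) and without PEPCK-TAg 2 (-0.89, adjusted p = 0.203), and under quantile normalization (-0.94, adjusted p = 0.0587). It was also lost with scanner type as a block (-1.11, adjusted p = 0.0576) and with eBayes without a trend (adjusted p = 0.0633), and held in 8 of 15 alternative fits.

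Slc30a5 (ZnT5) loads zinc into the secretory pathway. Its dimmer probe set read 157.9 and 147.5 on the PEPCK-TAg arrays, against 49.9 and 50.6 on the wild-type arrays. The replicates nearly coincided within each group, and the rise was 3.04-fold (1.602 ± 0.30 SE, limma adjusted p = 0.0189), with a same-day value of 1.66. Its brighter probe set read 246.1 and 178.0 on the PEPCK-TAg arrays, against 159.8 and 107.4 on the wild-type arrays, without overlap, and did not pass (0.68 ± 0.33 SE, adjusted p = 0.222). The probe sets are of the _r_at and _i_at kinds, built on fewer or partly shared probes. Without PEPCK-TAg 1 (1.55, adjusted p = 0.163) or PEPCK-TAg 2 (1.65, adjusted p = 0.120) the call of the dimmer one was lost.

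Zinc importers of the Slc39 family did not pass. Slc39a4 (ZIP4) had a probe set at 1479 and 1299.9 on the PEPCK-TAg arrays, against 814.6 and 739.7 on the wild-type arrays, without overlap (0.84 ± 0.22 SE, adjusted p = 0.0585). A second Slc39a4 probe set gave 0.55 ± 0.30 SE (adjusted p = 0.267). Slc39a6 (ZIP6) read 86.0 and 71.3 on the PEPCK-TAg arrays, against 33.8 and 31.5 on the wild-type arrays, without overlap and below the filter level in wild-type (1.26 ± 0.36 SE, adjusted p = 0.0697). Slc39a7 (ZIP7), which releases zinc from the endoplasmic reticulum, gave 0.12 ± 0.22 SE (adjusted p = 0.747). Slc30a1 (ZnT1), which exports zinc, gave -0.43 ± 0.38 SE near the filter level (adjusted p = 0.486). Slc11a2 (DMT1), the carrier of ferrous iron, gave 0.20 and 0.62 in its 2 probe sets (adjusted p = 0.5998 and 0.196), and Slc48a1, which moves haem out of endolysosomes, gave -0.67 ± 0.27 SE (adjusted p = 0.150). The other 8 genes lay between -0.47 and 0.61. The iron exporter Slc40a1 and the zinc and iron importer Slc39a14 were not analysed here.

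The mixed group held 45 of the 116 member probe sets tested and 7 of the 12 calls, 4 rises and 3 falls. Of its probe sets 15.6% were called, against 12.5% of all probe sets tested, and the median over 39 genes was -0.33. The fall with the lowest adjusted p was that of Slc46a1, the carrier that takes up folate at acid pH. Slc46a1 read 84.2 and 59.4 on the PEPCK-TAg arrays, against 448.1 and 491.0 on the wild-type arrays. Every array was above the filter level and the groups were far apart, a fall of 6.63-fold (-2.73 ± 0.29 SE, limma adjusted p = 0.00293), with a same-day value of -2.41. It passed with each array left out, at -2.98 to -2.48. The reduced folate carrier Slc19a1 had 2 probe sets that differed in sign (-0.22 and 0.18, adjusted p = 0.636 and 0.779).

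Slc27a5 (FATP5) is made in hepatocytes, where it takes up fatty acids and joins CoA to bile acids. It read 1588 and 1916 on the PEPCK-TAg arrays, against 3975 and 4219.7 on the wild-type arrays. Both PEPCK-TAg arrays were below both wild-type arrays, a fall of 2.35-fold (-1.23 ± 0.22 SE, limma adjusted p = 0.0170), with a same-day value of -1.32. The call was lost without PEPCK-TAg 1 (-1.10, adjusted p = 0.126) and without PEPCK-TAg 2 (-1.37, adjusted p = 0.0739). Slc27a2 (FATP2), which activates very long chain fatty acids, read 2842 and 3156 on the PEPCK-TAg arrays, against 5110.4 and 3946 on the wild-type arrays, without overlap, and did not pass (-0.58 ± 0.24 SE, adjusted p = 0.154).

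Carriers of the Slc6 family went both ways. Slc6a8 imports creatine, which serves as an energy store in muscle and brain. Its signal was 174.7 and 183.8 on the PEPCK-TAg arrays, against 12.7 and 17.6 on the wild-type arrays, which lay close to the floor. Slc6a8 rose (log2 difference 3.58 ± 0.37 SE, limma adjusted p = 0.00260), with a same-day value of 3.78. With a floor at 41.3 the value was 2.12 and the call stood, so the size of the rise depends on the floor. A second Slc6a8 probe set was too dim to test and did not show the rise. It read 13.1 and 5.80 on the PEPCK-TAg arrays, against 11.7 and 9.002 on the wild-type arrays. Slc6a12 (BGT1) brings betaine, an osmolyte and methyl donor, into cells. It read 172.9 and 184.7 on the PEPCK-TAg arrays, against 410.7 and 449.2 on the wild-type arrays. Each group was tight, and the fall was 2.40-fold (-1.27 ± 0.24 SE, limma adjusted p = 0.0212), with a same-day value of -1.25. It was lost without PEPCK-TAg 1 (-1.22, adjusted p = 0.175) and without PEPCK-TAg 2 (-1.31, adjusted p = 0.150). Slc6a8 went untested without PEPCK-TAg 1 (3.62) and without PEPCK-TAg 2 (3.55).

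Slc6a4, the serotonin carrier of neurons and platelets, had a probe set at 54.4 and 93.3 on the PEPCK-TAg arrays, against 8.21 and 5.50 on the wild-type arrays, both of which lay under the floor. The rise was at least 6.73-fold (2.75 ± 0.48 SE, limma adjusted p = 0.0158), and the SE holds no spread from the wild-type arrays. The same-day value was 2.36. A second Slc6a4 probe set did not share it, at 49.1 and 99.0 on the PEPCK-TAg arrays, against 56.3 and 81.9 on the wild-type arrays (0.039 ± 0.45 SE, adjusted p = 0.967). Slc8a1 (NCX1), which exchanges sodium for calcium, read 50.2 and 86.7 on the PEPCK-TAg arrays, against 8.21 and 12.9 on the wild-type arrays. The rise was at least 5.65-fold (2.50 ± 0.49 SE, limma adjusted p = 0.0228), with a same-day value of 2.25. Both genes stood near the filter level in PEPCK-TAg liver, and a floor at 41.3 ended both calls, with values of 0.79 for Slc6a4 (adjusted p = 0.146) and 0.68 for Slc8a1 (adjusted p = 0.192). Without PEPCK-TAg 1 they gave 3.14 and 2.89, and without PEPCK-TAg 2 2.36 and 2.10, and the filter then left both untested. The other Slc8a1 probe sets were too dim to test, under the floor on all arrays, and did not show the rise. The brighter of these read 4.99 and 6.60 on the PEPCK-TAg arrays, against 6.91 and 7.80 on the wild-type arrays.

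Slc20a1 (PiT-1), which imports phosphate with sodium, read 652.2 and 687.4 on the PEPCK-TAg arrays, against 371.1 and 288.7 on the wild-type arrays. The groups were apart, and the rise was 2.05-fold (1.03 ± 0.25 SE, limma adjusted p = 0.0432), with a same-day value of 0.81. Its adjusted p was the highest of the 12, and the call held in 6 of 15 alternative fits. It was lost without PEPCK-TAg 1 (1.07, adjusted p = 0.245), without PEPCK-TAg 2 (0.99, adjusted p = 0.255) and without wild-type 2 (0.85, adjusted p = 0.0700). It was also lost with scanner type as a block (0.85, adjusted p = 0.0922), quantile normalization (0.92, adjusted p = 0.0676), eBayes without a trend (adjusted p = 0.0692) and a floor at 41.3 (adjusted p = 0.0506).

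Genes of the mixed group that did not pass included Slc29a1 (ENT1), the nucleoside carrier, Slc9a3r1 (NHERF1), a scaffold that anchors carriers at the apical membrane, and Slc4a4, a sodium-bicarbonate carrier. The brighter Slc29a1 probe set read 755.5 and 1276.5 on the PEPCK-TAg arrays, against 1440.4 and 2713 on the wild-type arrays (-1.01 ± 0.39 SE, adjusted p = 0.141). Slc9a3r1 read 1549 and 1887 on the PEPCK-TAg arrays, against 2829 and 3994 on the wild-type arrays (-0.98 ± 0.26 SE, adjusted p = 0.0586). In both genes the PEPCK-TAg arrays were the lower pair. Slc4a4 read 353.5 and 159.9 on the PEPCK-TAg arrays, against 157.2 and 77.4 on the wild-type arrays, where the groups nearly touched (1.11 ± 0.50 SE, adjusted p = 0.189). All 9 genes of nucleoside and nucleotide sugar carriers tested were without a call, against 12.9% of all genes called. Their median was -0.36.

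**Figure D3:**
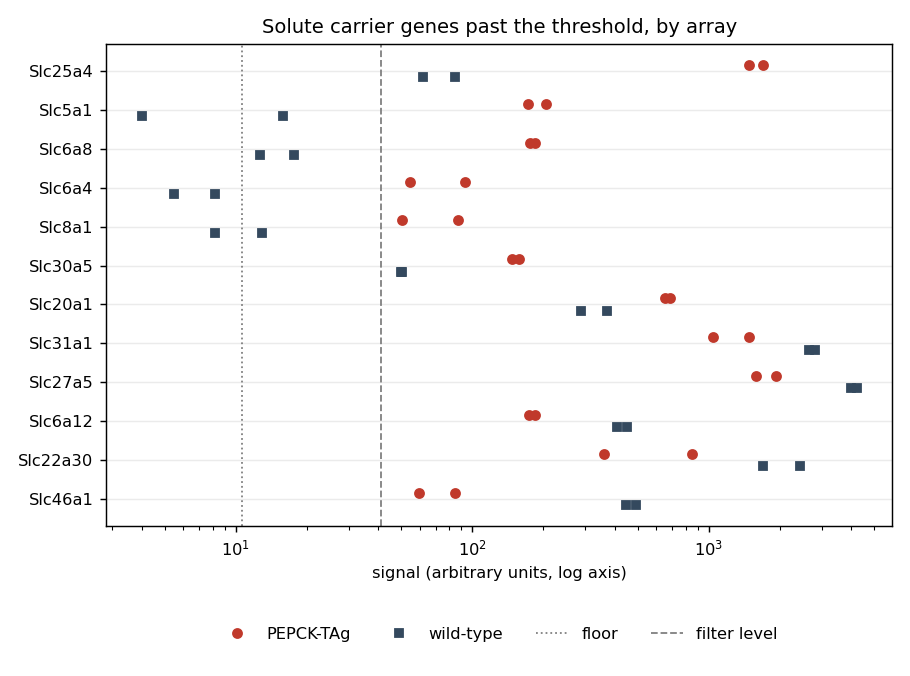
Signal on each array (log axis, arbitrary units) of the 12 probe sets past the threshold, ordered by log2 difference; circles are PEPCK-TAg and squares wild-type arrays, the dotted line is the floor (10.6) and the dashed line the filter level (41.3). In each of the 12 the 2 groups are apart, and the wild-type values of Slc5a1, Slc6a8, Slc6a4 and Slc8a1 all lie below the filter level.

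The sizes of the 12 differences under the alternative settings are plotted with the value reported. No setting turned a sign. In all 12 the groups did not overlap, so leaving out an array, a block, another floor or a pseudocount could not turn it. The range was widest for Slc6a4 (0.79 to 3.41) and reached from -2.50 to -1.26 for Slc22a30.

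**Figure D4:**
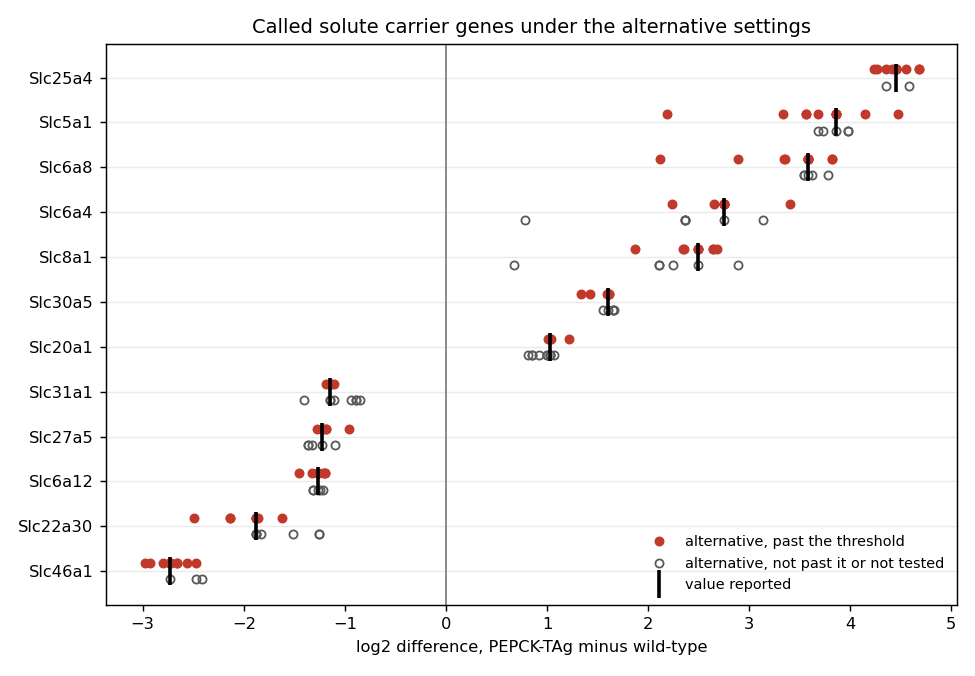
Log2 difference (PEPCK-TAg minus wild-type, horizontal axis) of the 12 called probe sets, with a black bar at the value reported and a point for each alternative setting; filled points passed an adjusted p of 0.05, and open points did not or were not tested. Slc25a4 stays between 4.23 and 4.68, whereas Slc6a4 spans 0.79 to 3.41 and Slc8a1 0.68 to 2.89.

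The promoter windows of the called genes, from RefSeq (build GRCm38.p6), run from 250 bases before to 50 bases after a transcript start, and 10 of the 12 genes had at least 1 window (not Slc6a8 and Slc27a5). Those of Slc25a4 and Slc46a1 are printed because these were the rise and the fall with the lowest adjusted p. Capitals mark the matches, on either strand, to CCAAT, to the GC box GGGCGG, to the TATA box TATAAA and to TTTNGCGC, a form of the site of the E2F factors that pocket proteins restrain. No match overlapped another. The windows are chr8:46211013-46211312 on the minus strand for Slc25a4 and chr11:78465451-78465750 on the plus strand for Slc46a1.
Slc25a4: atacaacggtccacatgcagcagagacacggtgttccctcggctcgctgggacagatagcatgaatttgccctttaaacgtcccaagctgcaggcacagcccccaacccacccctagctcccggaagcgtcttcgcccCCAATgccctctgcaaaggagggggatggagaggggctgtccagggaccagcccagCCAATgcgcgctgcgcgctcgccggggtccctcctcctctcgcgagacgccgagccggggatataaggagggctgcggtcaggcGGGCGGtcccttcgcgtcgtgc
Slc46a1: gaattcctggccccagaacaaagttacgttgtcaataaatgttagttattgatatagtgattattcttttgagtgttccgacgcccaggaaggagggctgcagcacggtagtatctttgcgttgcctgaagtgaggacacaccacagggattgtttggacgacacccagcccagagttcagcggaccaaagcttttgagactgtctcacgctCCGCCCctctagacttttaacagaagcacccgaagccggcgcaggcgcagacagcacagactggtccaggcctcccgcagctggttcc
The Slc25a4 window held 2 CCAAT matches and 1 GC box, and the Slc46a1 window 1 GC box. Among the called genes with a window, CCAAT stood in 3 of 6 that rose and 1 of 4 that fell, and the GC box in 4 of 6 and 2 of 4, where a match in any window of a gene counts. By the same count over all 27025 genes with a window, 41.1% held CCAAT and 38.2% the GC box. TATAAA stood in 1 of 6 and 0 of 4 genes, against 15.7% of all genes, and TTTNGCGC in none, against 1.57%. Of all 32851 single windows 37.4% held CCAAT, 35.7% the GC box, 13.6% TATAAA and 1.38% TTTNGCGC.

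Other genes of solute transport, taken from a list of 42 that bear no Slc symbol, were counted for context. Of 29 tested, 4 rose and 1 fell, against rises in 9.56% and falls in 3.34% of all genes. The median was 0.042, against 0.072 over all genes. Aqp9, the glycerol channel of hepatocytes, fell to 655.6 and 494.0 on the PEPCK-TAg arrays, against 2467 and 2354 on the wild-type arrays (-2.08 ± 0.24 SE, limma adjusted p = 0.00376). The rises were Ezr, a membrane-cytoskeleton linker, Sgk1, a kinase that raises carrier activity, Mt2, a metallothionein that binds zinc and copper, and Rhag, an ammonium carrier of red cells, by 3.56-fold, 2.75-fold, 3.32-fold and 6.15-fold. The sodium pump subunits Atp1b1 and Atp1b3 gave -0.27 and -0.12 (adjusted p = 0.634 and 0.772).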

How the data were processed

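Total liver RNA of 2 PEPCK-TAg and 2 wild-type samples was hybridised to Affymetrix MG_U74Av2 arrays. The authors deposited 1 signal intensity per probe set and array on a linear scale, made with MAS5 per the submitters' processing notes, with no version given in the sources used here. Chip lot, scan day, station and scanner came from the deposited experiment files.

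Arrays were scaled to a common 2% trimmed mean without the 66 controls (a change of at most 0.102%), raised to a floor of 10.6 (the 20th percentile over all arrays) where lower, and turned into log2 values. Probe sets above the 40th percentile (41.3) on at least 2 of 4 arrays, of either group, were tested. The test was two-sided, from limma 3.58.1 (R 4.3.3), by lmFit without a block and eBayes with trend, and p-values were adjusted by Benjamini-Hochberg over 7877 probe sets. An SE is limma's moderated one, with 6.60 degrees of freedom. For 2 against 2 arrays the smallest p of an exact permutation test is 0.333. Where a wild-type array was under the floor, the fold is a lower bound. The fit was tested on simulated data.

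Gene symbols are those of the platform annotation, and 178 of 178 members matched RefSeq by gene ID with the same symbol. Of 13 genes with several tested probe sets, 8 had probe sets that differed in sign or call. Medians use the brightest probe set of a gene. The members, substrate groups, lists, tests and alternatives were chosen with earlier results of these data known. Named were all called genes, the 3 brightest genes of each group in wild-type liver, the 3 largest differences without overlap that did not pass in each group, and 23 liver carriers, of which 16 had a probe set of their own. Slc19a1 lies outside that rule and was named after its values were seen. Genes too dim to test are named as such. Array signals of different probe sets are not comparable as levels. The number of arrays limits the precision. The alternatives are given with their effects at the close.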

Additional observations from a re-analysis of the deposited data

How the results depend on the processing

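The number of called members was 12 of 116 and stayed within 1.5 times that number under quantile normalization, the deposited values without scaling, both other floors, a pseudocount, a filter at the 60th percentile, eBayes without a trend, scanner type as a block and a 2-fold requirement (10 to 15 calls). Without a filter it was 3 (1 of them among the 12), with the fluidics station as a block 0, and 23 when counted by a 2-fold difference without overlap and no test. Leaving out 1 array, with the filter set again on those left, gave a range from 2 to 33 (3 without PEPCK-TAg 1, 2 without PEPCK-TAg 2, 33 without wild-type 1 and 17 without wild-type 2), and the lone array is then assumed to vary like the other group. Over all probe sets the count was 985, and 165 with no filter, 1873 with the replicate block, 0 with the station block, 1616 by fold without overlap and 145 to 1696 with 1 array left out. The groups share replicate numbers, which no label ties to animals; the arrays numbered 1 were scanned on the same day and those numbered 2 on different days. The deviations of same-numbered arrays had a correlation of 0.253 over the probe sets tested. With the replicate number as a block 31 members were called, all 12 included. Group medians moved by more than the spread between replicates as follows, and the cause was not tested. Under quantile normalization they were -0.43 for amino acid, -0.71 for organic ion, -0.014 for metal, -0.44 for other and 0.64 for sugar carriers, against -0.14, -0.46, 0.11, -0.33 and 0.29. The set of genes tested also changed there, to 6 sugar and 40 other genes, from 5 and 39. The sugar median was 0.84 with no filter and 0.80 with scanner type as a block, where the metal median was -0.032; within the shared scan day the metal median was 0.042. With 1 array left out the medians of all groups, of which only organic ion, metal and sugar moved beyond that spread, ranged from -0.31 to 0.047 for amino acid, from -0.61 to -0.25 for mitochondrial, from -0.37 to -0.26 for other, from -0.51 to -0.079 for organic ion, from -0.032 to 0.16 for metal and from 0.17 to 0.80 for sugar carriers. No called member changed sign under any setting, which for groups that do not overlap was fixed in advance under most of them. Near the floor, in Slc5a1, Slc6a8, Slc6a4 and Slc8a1, signal over background limits the size of a fold.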
